A study of Mus musculus with 2 samples.

Results

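Transcripts of 8 regulators of the primitive endoderm were examined in undifferentiated mouse embryonic stem cells (mESCs). They were the transcription factor genes Gata6, Gata4, Sox17, Sox7, Foxa2 and Hnf4a, the receptor gene Pdgfra and the endocytic adaptor gene Dab2. Members were taken by symbol, under a rule that uses no measured value, and all 8 were found among the 22556 genes of the count table. All 8 had counts in both libraries, as few as 2 for Sox7 in replicate 2 and for Foxa2 in replicate 1. Dab2 alone stood at 12.2 TPM (transcripts per 1000000) over exonic length, and the other 7 had means between 0.131 and 1.47 TPM on that scale.

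The primitive endoderm is the extraembryonic layer of the blastocyst that lines the cavity and gives rise to the parietal and visceral endoderm of the yolk sacs. In the inner cell mass, FGF4 from future epiblast cells acts through FGF receptors and the ERK kinases, and cells that respond keep GATA6 and lose NANOG. GATA6 stands at the top of the network, and PDGFRA, SOX17, GATA4 and SOX7 are then switched on. Stem cell cultures in serum and LIF are known to hold some cells that lean towards this fate, and forced GATA6 or GATA4 turns mESCs into extraembryonic endoderm.

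Messenger RNA had been isolated on oligo(dT) beads from female XX mESCs of the iXist-ChrX-Dom line, a hybrid of strain Dom/129S x Cast. In these cells a TetOn promoter takes the place of the endogenous Xist promoter on the Dom/129S allele, so that doxycycline switches on the X-inactivating RNA. No doxycycline was given (0 h), and the libraries were made so that genes could be ranked by their starting level before Xist induction. The series holds 1 group of 2 replicates of the clone A11B2, without any treated or control group, and the labels do not say whether the replicates were separate cultures. The cells were grown in foetal calf serum and LIF, and the fibroblast feeders were removed by pre-plating. The cell type field of the labels spans mESC to NPC (neuronal precursor cells), whereas the titles name ES cells at 0 h.

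Fragments assigned to genes numbered 23716499 in replicate 1 and 20275749 in replicate 2, and the limit set by a count of 0 is 3 counts, which is 0.126 CPM (counts per 1000000) in replicate 1 and 0.148 CPM in replicate 2. Such floors and the intervals given here cover counting error alone, since the libraries had no molecular identifiers. Of 12 markers of naive ES cells, 11 reached 1 TPM, with a list median of 88.2 span TPM and 86.4 exonic TPM, and Sox2, which lies within another gene of the same strand, was listed at 0. The pluripotency factor gene Pou5f1, named after its values were seen, had 1129 counts in replicate 1 and 142 in replicate 2. Of 17 fibroblast markers, 1 reached 1 span TPM (Thy1) and 3 reached 1 exonic TPM (Fbn1 at 2.68, Col5a1 at 1.71 and Thy1 at 1.22). Thy1 passed through replicate 1 alone, with 4.15 and 0.341 span TPM and 2.27 and 0.176 exonic TPM, so that in replicate 2 no fibroblast marker reached 1 span TPM. The list median was 0.134 span TPM (0.146 in replicate 1 and 0.0232 in replicate 2) and 0.111 exonic TPM, and 12 of the 17 had fewer than 10 counts over both libraries, among them the collagen genes Col1a1 and Col3a1, named after their values were seen, with 4 and 5 counts and 0 and 1 count. The sum of the fibroblast list was 19.1 CPM in replicate 1 and 13.9 CPM in replicate 2. Most ES cell markers were thus high and most fibroblast markers low, with Fbn1, Col5a1 and Thy1 as the exceptions among the latter. In bulk RNA, fewer cells of a type and less RNA per cell cannot be told apart, so a low level of a regulator can stand for few cells or for little RNA in each.

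TPM was computed and averaged over both libraries, the measure that the study used for initial expression, although its methods do not name the length. Here the main length was that of the count table, which is the whole transcribed span with its introns. For the regulators the span was 1.57 (Sox17) to 27.0 (Dab2) times the exonic length, so each regulator is given on both scales. The study's methods describe these libraries as poor in intronic reads. Where fragments come from exons, span TPM lowers genes with long introns against compact genes. Values are the mean ± SD of 2 libraries.

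Gata6 and Gata4 encode zinc finger factors that bind GATA motifs, the former required to specify the primitive endoderm and the latter active in the layer once formed. Gata6 (mm10 chromosome 18, 11052509 to 11085635, plus strand) had 38 counts in replicate 1 and 25 in replicate 2. These gave 0.773 and 0.668 span TPM (0.721 ± 0.0745, SD, n = 2) and 1.56 and 1.28 exonic TPM (1.42 ± 0.201, SD, n = 2). The first bases of Gata6 overlap the antisense gene 1010001N08Rik over 59 bases on the other strand. That gene had 1 count in each library, so that almost no antisense RNA was read there. Gata4 (chromosome 14, 63198914 to 63245260, minus strand) had 37 and 35 counts. Its levels were 0.538 and 0.668 span TPM (0.603 ± 0.0921, SD, n = 2) and 1.35 and 1.59 exonic TPM (1.47 ± 0.168, SD, n = 2). The ranges of Gata6 and Gata4 overlapped on both scales, and neither gene was above the other beyond the spread of the libraries. On exonic length they ranked above 47.6% and 47.9% of genes, and on span length above 44.8% and 43.4%.

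Sox17 and Sox7 are closely related SOX factors of the endoderm, and SOX17 can also pair with OCT4 on DNA. Sox17 (chromosome 1, 4490927 to 4497354, minus strand) was read by 10 and 14 counts in replicates 1 and 2. On span length these were 1.05 and 1.93 TPM (1.49 ± 0.621, SD, n = 2), which placed it at rank 2 of the regulators, and on exonic length 0.325 and 0.565 TPM (0.445 ± 0.170, SD, n = 2), which placed it at rank 5. Its short introns give it a span close to its exonic length, so that it moved down once the others were also taken per exonic base. Sox7 (chromosome 14, 63943705 to 63950732, plus strand) had 4 and 2 counts, 0.384 and 0.252 span TPM (0.318 ± 0.0932, SD, n = 2) and 0.161 and 0.10 exonic TPM (0.131 ± 0.0431, SD, n = 2). Its mean was the lowest of the 8 on both scales, although Foxa2 was lower in replicate 1 on both. Its counting interval in replicate 2, 0.242 to 7.22 counts (95% exact Poisson), spanned a wide range of levels.

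Foxa2 and Hnf4a encode factors of the visceral endoderm, a forkhead protein that opens chromatin and a nuclear receptor that drives metabolic and secretory genes. Foxa2 (chromosome 2, 148042876 to 148046969, minus strand) had 2 counts in replicate 1 and 3 in replicate 2. This gave 0.329 and 0.649 span TPM (0.489 ± 0.226, SD, n = 2) and 0.122 and 0.228 exonic TPM (0.175 ± 0.0747, SD, n = 2). Foxa2 also marks the definitive endoderm and so does not tell the lineages apart. Hnf4a (chromosome 2, 163547187 to 163572907, plus strand) had 40 and 25 counts, in the range of Gata6 and Gata4. It stood at 1.05 and 0.860 span TPM (0.954 ± 0.133, SD, n = 2) and at 1.22 and 0.948 exonic TPM (1.08 ± 0.192, SD, n = 2). Its measured level was thus above that of Foxa2 in both libraries on both scales. The counting intervals of the pair overlapped on span length in both libraries, and on exonic length in replicate 2.

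Pdgfra, the receptor for PDGF ligands and a common surface marker of primitive endoderm cells, lies on chromosome 5 (75152290 to 75198204, plus strand). It had 31 counts in replicate 1 and 17 in replicate 2. The levels were 0.455 and 0.328 span TPM (0.391 ± 0.0901, SD, n = 2) and 0.470 and 0.321 exonic TPM (0.396 ± 0.106, SD, n = 2). Both libraries lay below 1 TPM with either length. The receptor is also known from fibroblasts, whose list summed to the 19.1 and 13.9 CPM given above, and their part in the level of Pdgfra was not tested.

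Dab2, a clathrin adaptor that brings lipoprotein receptors such as megalin into endosomes and is needed in the visceral endoderm, was the highest regulator. It lies on chromosome 15 (6299788 to 6440709, plus strand) and had 490 counts in replicate 1 and 377 in replicate 2, or 20.7 and 18.6 CPM. Dab2 took 75.4% of the fragments of all 8 regulators, which summed to 652 and 498 counts. On span length it stood at 2.34 and 2.37 TPM (2.36 ± 0.0167, SD, n = 2) and on exonic length at 12.5 and 12.0 TPM (12.2 ± 0.382, SD, n = 2). It ranked above 55.2% of genes on the first scale and above 68.1% on the second. The counted span of 140922 bp begins at a distal start. With the length alone taken from the proximal start at 6386747, a setting added after the values were seen, the span was 53963 bp. The same 490 and 377 counts then gave 6.12 and 6.18 TPM. Fragments from before that start were not taken out, so this is not a recount.

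**Figure D1:**
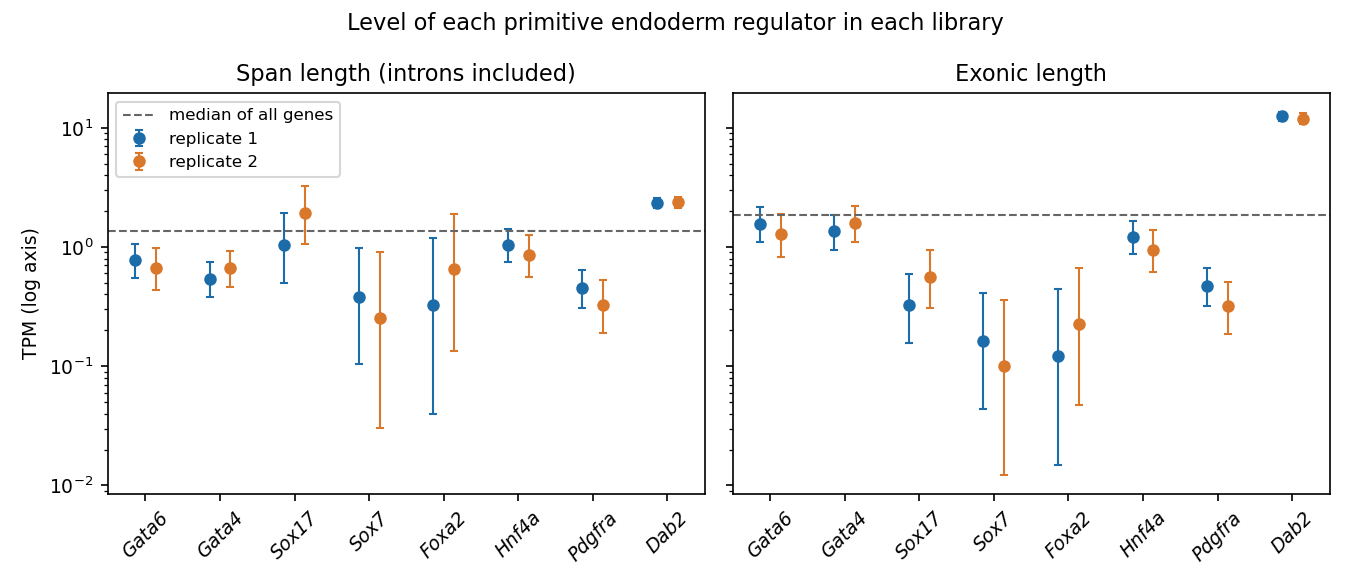
TPM of each regulator (log axis) in replicates 1 and 2, over the transcribed span on the left and over exonic length on the right, with 95% exact Poisson intervals of the counts and the median of all genes as a dashed line. Dab2 lies above that median on both scales, Sox17 is above it only in replicate 2 and only on span length, and the intervals of Sox7 and Foxa2 are the widest.

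Promoter sequence is shown for the regulators that had a window in the RefSeq table used here (GRCm38.p6, 250 bases before to 50 after each start), because the counted spans depend on where each gene starts. These were Foxa2, Hnf4a, Pdgfra and Dab2, with 8 windows in all, and Gata6, Gata4, Sox17 and Sox7 had none. Each line gives 100 bases upstream of a start, 5′ to 3′ on the strand of the gene, with every CG in capitals. The stretches of the other Foxa2 starts and of the distal Hnf4a start are not printed. The proximal Dab2 stretch ends 150 bases before its start, where annotated exon follows.
Foxa2, chr2:148046970-148047069, minus strand: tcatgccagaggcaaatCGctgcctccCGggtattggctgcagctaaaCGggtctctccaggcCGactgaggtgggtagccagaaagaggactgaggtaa
Hnf4a, chr2:163547055-163547154, plus strand: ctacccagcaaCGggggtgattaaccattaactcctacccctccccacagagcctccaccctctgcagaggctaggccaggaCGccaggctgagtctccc
Pdgfra, chr5:75152151-75152250, plus strand: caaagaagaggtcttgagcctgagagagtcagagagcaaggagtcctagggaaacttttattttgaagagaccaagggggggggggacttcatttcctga
Dab2 distal, chr15:6299688-6299787, plus strand: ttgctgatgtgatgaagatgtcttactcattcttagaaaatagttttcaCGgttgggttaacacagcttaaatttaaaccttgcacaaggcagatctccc
Dab2 proximal, chr15:6386498-6386597, plus strand: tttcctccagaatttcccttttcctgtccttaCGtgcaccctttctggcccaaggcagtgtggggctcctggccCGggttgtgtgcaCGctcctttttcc
The pair of Dab2 starts differed in base composition. The whole 300-base window held 2 CG at the distal start, more than in 14.1% of all 32851 windows, and 19 at the proximal start, more than in 71.9%. The windows of Foxa2 held 12, 23 and 13 CG, those of Hnf4a 4 and 4, and that of Pdgfra 5, against a median of 7 over all windows. The motif GATAA, searched on both strands, was found in 3 of the 8 windows (the distal Dab2 window, the distal Hnf4a window and the third Foxa2 window) and in 25.4% of all windows. A match of these letters describes the sequence and is not a binding site. The distal Hnf4a start at 163506857 lies before the counted span, which begins at 163547187, so that fragments from the distal part were not counted for Hnf4a.

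The order of the levels depended on the length used. By span TPM it ran Dab2, Sox17, Hnf4a, Gata6, Gata4, Foxa2, Pdgfra, Sox7. By exonic TPM it ran Dab2, Gata4, Gata6, Hnf4a, Sox17, Pdgfra, Foxa2, Sox7, and 2 of 8 genes kept their rank, the highest and the lowest. By span TPM the ranges of the libraries overlapped for Gata6 and Gata4, Gata4 and Foxa2, Foxa2 and Pdgfra, and Pdgfra and Sox7, which is 4 of 7 neighbouring pairs. By exonic TPM they overlapped for Gata4 and Gata6, Sox17 and Pdgfra, and Foxa2 and Sox7, which is 3 of 7. The counting intervals were wider, and overlapped in at least 1 library for all 7 neighbouring pairs on span length and for 6 of 7 on exonic length. The exception was Dab2 above Gata4, the step that the counts resolved.

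A mean of 1 TPM was reached by Dab2 and Sox17 on span length, which is 2 of 8 regulators, against 52.7% of all genes. On exonic length Dab2, Gata4, Gata6 and Hnf4a reached it, which is 4 of 8, against 55.3% of the 22142 genes with such a length. The median of the regulators was 0.662 span TPM against 1.35 for all genes, and 0.765 exonic TPM against 1.85. Medians of the regulators lay below those of all genes on both scales, and the count at 1 TPM lay below the background share on span length and near it on exonic length. All 8 had counts above 0 in both libraries, and 4765 genes of the table had none in either.

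The 2 libraries were compared gene by gene, with counts set against the library totals in a two-sided exact binomial test, adjusted by Benjamini-Hochberg over the 14536 genes with at least 10 counts in total. The test compares these libraries and not conditions. None of the 6 regulators tested had an unadjusted p under 0.05. None passed at an adjusted p of 0.05, against 60.8% of all genes tested and 32.2% of the 4045 tested genes with 10 to 100 counts in total. With TMM factors or DESeq2 size factors in place of totals, the number of regulators called was also 0. Sox7 and Foxa2, with 6 and 5 counts in total, fell under the minimum.

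The best measured regulator, Dab2, differed by −0.15 on the log2 scale between replicate 2 and replicate 1, with a 95% exact interval of −0.35 to 0.04 (exact binomial p = 0.125, adjusted p = 0.177). Log2 ratios are of CPM after 0.5 counts were added, and intervals are exact for the counts themselves. That interval was the narrowest of the 8. For Gata6 the ratio was −0.37 (interval −1.17 to 0.39, exact binomial p = 0.316, adjusted p = 0.394) and for Gata4 0.15 (−0.56 to 0.85, exact binomial p = 0.723, adjusted p = 0.785). For Hnf4a it was −0.44 (−1.23 to 0.30, exact binomial p = 0.263, adjusted p = 0.336). All of these intervals cross 0, and differences within them were not detectable at this depth. For Pdgfra the ratio was −0.62 (−1.59 to 0.26, exact binomial p = 0.149, adjusted p = 0.207) and for Sox17 0.69 (−0.56 to 2.04, exact binomial p = 0.306, adjusted p = 0.383). The untested genes had wider intervals, −4.24 to 2.03 around −0.62 for Sox7 and −2.31 to 4.39 around 0.71 for Foxa2.

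The libraries differed along GC content. Over the 9240 autosomal genes that had 50 or more counts in both libraries, the Spearman's rho between the ratio and GC content was −0.65, given as a description. Dab2 had the lowest GC content of the regulators, 45.7%, and Gata4 the highest, 57.4%, around the median of 48.7% for all genes. At the GC content of Dab2 the trend of autosomal genes was −0.15, the same as the ratio of Dab2 itself. At that of Gata4 the trend was −0.76 and the ratio of Gata4 was 0.15. With the trend taken out, Gata4 was 0.91 higher in replicate 2 (exact binomial adjusted p = 0.0205), the call made for 1 of 6 regulators against 45.6% of the 14394 genes tested in that setting, and 2 of 6 had an unadjusted p under 0.05.

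**Figure D2:**
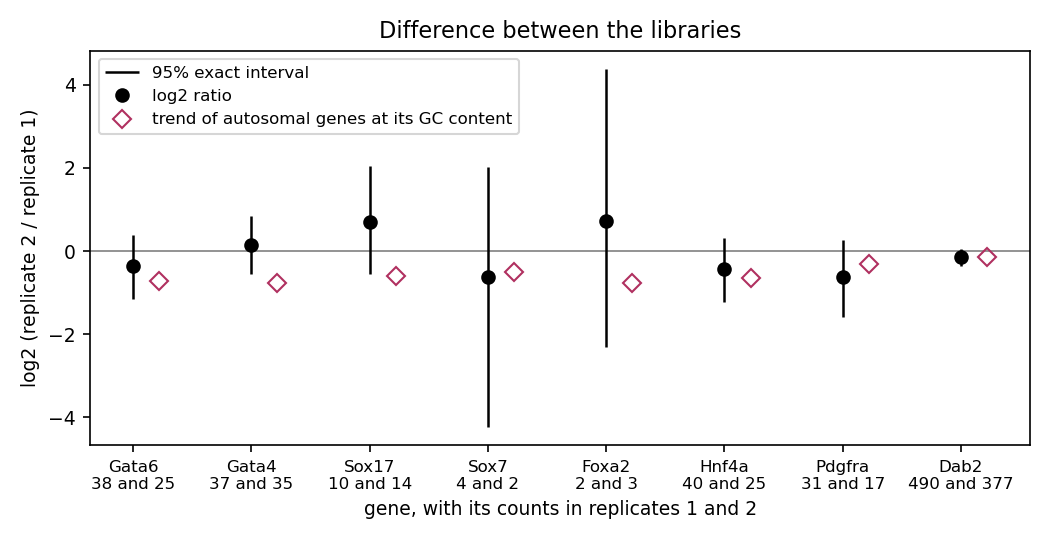
Log2 ratio of replicate 2 over replicate 1 for each regulator (points) with its 95% exact interval (lines), and the trend of autosomal genes at the GC content of that gene (open diamonds), with counts under the names. All 8 intervals cross 0, the interval of Dab2 is the narrowest, and the diamonds of Gata4 and Sox17 lie below their intervals.

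Related genes and binding partners of the regulators were read in the same libraries, as a list of 18 genes chosen by family and known partnership. Of these, 5 reached 1 span TPM and 7 reached 1 exonic TPM, with medians of 0.565 and 0.623 TPM. Among the 15 tested, 5 were higher in replicate 1 and 1 was higher in replicate 2, against 60.8% called of all genes tested. In the GATA family, Gata2 of the blood and trophoblast lineages had 32 and 28 counts (1.21 ± 0.0720 exonic TPM, SD, n = 2). That was close to Gata6 and Gata4 on exonic length, and on span length Gata2 was above both, at 2.77 ± 0.271 TPM (SD, n = 2). Gata3 had 12 and 14 counts, Gata1 had 10 and 2, and Gata5 had 0 and 2. The FOG cofactors of GATA proteins were unequal, with 453 and 281 counts for Zfpm2 (0.616 ± 0.0892 span TPM and 8.41 ± 1.53 exonic TPM, SD, n = 2) and 22 and 7 for Zfpm1. Sox18, the remaining relative of Sox17 and Sox7 in the SOX F group, had 1 and 0 counts.

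The partners of Foxa2 and Hnf4a were also scarce, apart from Hhex. Foxa1 had 8 and 3 counts (0.733 ± 0.353 span TPM and 0.245 ± 0.126 exonic TPM, SD, n = 2). Foxa3 had 14 and 9 counts (0.848 ± 0.101 span TPM and 0.823 ± 0.130 exonic TPM, SD, n = 2). Foxa3 was above Foxa2 in both libraries on both scales, and Foxa1 was above Foxa2 in replicate 1 and below it in replicate 2. The counting intervals of Foxa3 and Foxa2 overlapped on span length in both libraries, and on exonic length in replicate 2. Those of Foxa1 and Foxa2 overlapped in both libraries on both scales. Hnf4g, the paralogue of Hnf4a, had 1 count in each library. Hhex, a homeobox gene of the anterior visceral endoderm that is known to be read in a fraction of mESCs, had 142 and 128 counts. At 10.4 ± 0.842 exonic TPM (SD, n = 2) it was below Dab2 and above the other 7 regulators, and at 17.7 ± 2.11 span TPM (SD, n = 2) it was above all 8, Dab2 included, in both libraries. Its ratio between libraries was 0.08 (interval −0.28 to 0.43, exact binomial adjusted p = 0.736).

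The PDGF ligand genes Pdgfa and Pdgfc were higher than the receptor gene Pdgfra in both libraries and on both scales. Pdgfa, the main ligand of PDGFRA, had 328 and 316 counts (13.9 ± 2.3 span and 16.3 ± 2.08 exonic TPM, SD, n = 2), and its exonic TPM was 31.5 and 55.4 times that of Pdgfra in the respective libraries. Pdgfc, another ligand of that receptor, had 873 and 920 counts, and its exonic TPM was 70.1 and 135 times that of Pdgfra. On span length, which is long for Pdgfc, the same ratios were 7.28 and 14.0. Pdgfb had 17 and 9 counts, and its exonic TPM was 1.63 and 1.58 times that of Pdgfra. Pdgfrb, the second receptor of the family, had 12 and 4 counts. Pdgfc was the partner gene called higher in replicate 2 (log2 ratio 0.30, exact binomial adjusted p = 2.9e-05).

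Of the partners of Dab2, Lrp2 encodes megalin, the receptor that DAB2 helps to take up. Lrp2 had 205 and 118 counts, or 0.750 ± 0.148 span TPM and 1.41 ± 0.331 exonic TPM (SD, n = 2), below Dab2 in each library on both scales. Dab1, the neuronal paralogue of Dab2, had 891 and 624 counts and 19.3 ± 1.88 exonic TPM (SD, n = 2), and on span length 1.53 ± 0.0907 TPM (SD, n = 2). Dab1 was above Dab2 on exonic length and below it on span length. Fragments of exons and introns cannot be told apart in these counts, and which order holds was not tested, though the study's methods call intronic reads rare.

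Markers of the primitive endoderm and its derivatives were uneven. Of 31 such genes, 16 reached 1 span TPM and 17 reached 1 exonic TPM, and the list median was 1.22 span TPM and 1.41 exonic TPM. The median was 1.37 span TPM in replicate 1 and 0.697 span TPM in replicate 2. The highest by span TPM were the lipoprotein gene Apoe (840 and 384 counts, 155 ± 54.8 span and 47.7 ± 18.5 exonic TPM, SD, n = 2), the basement membrane gene Nid2 (4340 and 3483 counts, 49.6 ± 1.83 span and 118 ± 0.168 exonic TPM) and the collagen chaperone gene Serpinh1 (405 and 214 counts, 29.4 ± 7.52 span and 18.3 ± 5.35 exonic TPM). This order holds for mean span TPM and not for exonic length, where Nid2 was above Apoe and other genes of the list were above Serpinh1. On span length Serpinh1 was below Sparc in replicate 1 (34.7 and 36.7 TPM) and above it in replicate 2 (24.1 and 20.9 TPM). Apoe, Nid2 and Serpinh1 are also expressed outside the endoderm, Nid2 and Serpinh1 in cells that lay down basement membrane or collagen. At the other end, Amn, Ttr, Apoa1 and Ihh, named after their values were seen and known from the differentiated visceral endoderm, were at 0 in both libraries. Of 23 tested, 17 were called, against 60.8% of all genes, with 15 of them higher in replicate 1, as were 6640 of the 8842 genes called in all. The extremes were Plat, a parietal endoderm protease gene with 10 and 1 counts (log2 ratio −2.58, exact binomial adjusted p = 0.0254), and Thbd, encoding thrombomodulin, with 15 and 36 counts (log2 ratio 1.46, exact binomial adjusted p = 0.00133). The list includes Lrp2 and Hhex, which are counted among the partners as well.

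Transcripts of the FGF and ERK pathway, which feeds the primitive endoderm decision, were read at varied levels. All 12 genes of the FGF and ERK list reached a mean of 1 TPM on both scales, Mapk3 through replicate 1 alone (5.77 and 0.572 span TPM), with medians of 9.73 span TPM and 16.8 exonic TPM. Fgf4, the ligand made by epiblast and ES cells, had 5798 and 2965 counts (846 ± 235 span TPM, 208 ± 65.5 exonic TPM, SD, n = 2). The ERK phosphatase gene Dusp6 was at 69.2 ± 11.1 span TPM and 20.2 ± 2.47 exonic TPM (SD, n = 2). Among the 9 of 12 called between libraries (60.8% of all genes tested were), the largest difference was for Mapk3, with 53 counts in replicate 1 and 4 in replicate 2 (log2 ratio −3.35), and Map2k1 was the one higher in replicate 2 (log2 ratio 0.12). The receptor genes, named after their values were seen, had 646 and 327 counts for Fgfr1 and 330 and 284 for Fgfr2. Fgfr1 was at 6.36 ± 1.81 span TPM and 13.4 ± 4.32 exonic TPM, and Fgfr2 at 2.27 ± 0.196 span TPM and 8.88 ± 0.426 exonic TPM (SD, n = 2). On span length Fgfr1 was above Dab2 in both libraries, and on exonic length it was 16.5 TPM in replicate 1 and 10.4 TPM in replicate 2, on either side of Dab2. On exonic length Fgfr2 was below Dab2 in both libraries.

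The opposing factor was at the other end of the scale. Nanog, the epiblast factor that represses Gata6, had 13460 and 10151 counts (1263.5 ± 8.88 span TPM, 774 ± 35.1 exonic TPM, SD, n = 2). On exonic length Nanog was 511 and 586 times Gata6 in replicates 1 and 2. Against Dab2 the ratios were 63.9 and 62.7. On span length they were 1642 and 1882 for Gata6 and 542 and 531 for Dab2, so that the size of the ratio depended on the length and its direction did not. By the mean span TPM of both libraries the naive list was led by Nanog, Dppa5a and Zfp42, an order that held in neither library alone. Dppa5a had 2915 counts in replicate 1 and 298 in replicate 2 (log2 ratio −3.06), and Zfp42 was the naive gene called higher in replicate 2 (log2 ratio 0.05). Of the 11 naive genes tested, 10 were called, against the same 60.8%.

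Foxa2 is also known from the mesendoderm and the definitive endoderm, and of 10 other markers of these cells 2 reached 1 TPM, on either length. These were Eomes (396 and 243 counts, 30.3 ± 4.62 span and 12.6 ± 2.39 exonic TPM, SD, n = 2) and T (89 and 42 counts, 6.02 ± 2.00 span and 4.59 ± 1.69 exonic TPM, SD, n = 2), T-box genes of the primitive streak. Mixl1, a streak homeobox gene, was the third by mean span TPM, with 10 and 1 counts, though not by exonic TPM. That place rested on replicate 1 (1.69 span TPM), and in replicate 2 (0.222 span TPM) Foxa3 and Foxa1 were above Mixl1. Mixl1 was the most unequal of the 3 called of 5 tested, near the 60.8% of all genes (log2 ratio −2.58, exact binomial adjusted p = 0.0254). Gsc, Lhx1, Mesp1 and Cer1, named after their values were seen, were at 0 in both libraries. Cer1 also marks the anterior visceral endoderm, which Hhex does as well. Among fibroblast markers the highest by mean span TPM were Thy1 (32 and 2 counts), Fbn1 (251 and 187) and Col5a1 (128 and 71), an order that held in neither library alone. Thy1, a surface glycoprotein gene, differed most among the 2 called of 5 tested (log2 ratio −3.47).

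**Figure D3:**
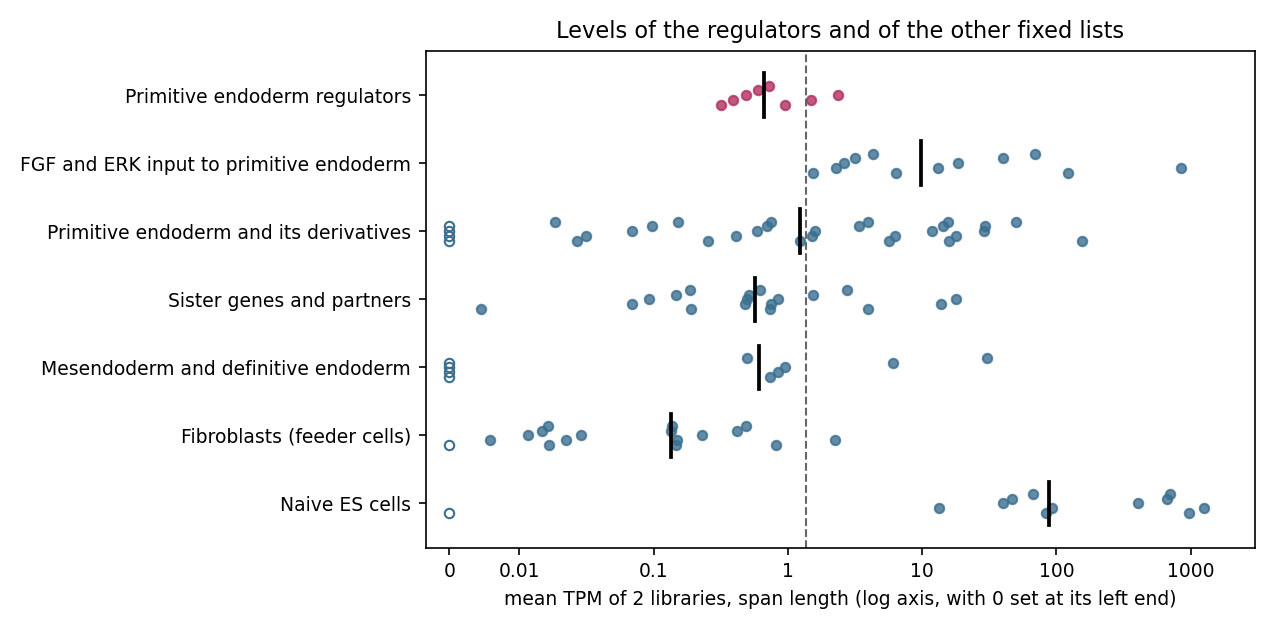
Mean span TPM of 2 libraries (log axis, 0 at the left end with open points) for every gene of the regulators and of 6 other lists, with the median of each list as a black bar and the median of all genes as a dashed line. The regulators lie between 0.318 and 2.36 TPM with a median of 0.662, below the medians of the FGF and ERK list (9.73) and of the naive ES cell list (88.2) and above that of the fibroblast list (0.134, and 0.146 and 0.0232 in the single libraries). The medians of the mesendoderm and definitive endoderm list (0.613) and of the partner list (0.565) are close to that of the regulators. The median of the primitive endoderm and derivatives list is 1.22.

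Few reads of the regulators could be shared with other genes. No regulator overlapped a gene on its own strand. Of the 50-base words of the longest transcript, 2 of 3250 in Sox7 and 12 of 6785 in Pdgfra also occurred in a transcript of another gene, and none did in the other 6.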

How the data were processed

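Polyadenylated RNA from 2 replicates of 1 group was analysed. The authors deposited whole-number fragment counts per gene, made per the file headers with featureCounts (version 1.5.2) on mm10, reverse-stranded, over transcript spans with introns. STAR (version 2.4.2a) and Bowtie2 (version 2.3.2) are named in the submitters' processing notes, and the alignment of these libraries is not given in the sources used here. The names of the deposited count columns lack a letter b of the sample descriptions and were matched by the rest of the name.

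The 8 regulators, the gene lists and the tests were chosen with earlier results of these data known, and the lists are not independent evidence. Span TPM used the deposited length, and exonic TPM the union of exons of GENCODE M21 basic transcripts, matched by symbol for 21258 genes and by older symbol for 884. With 1 group there is no contrast for edgeR's quasi-likelihood test, so the libraries were compared by the two-sided exact binomial test (scipy 1.17.1). Calls were made at 0.05 after Benjamini-Hochberg adjustment over all genes with a total of 10 or more. The test was also run on simulated counts, which held counting error alone and no GC trend. That run does not show how the test behaves where libraries differ along GC content. The p-values of the exact binomial test weigh the difference between these libraries against counting error alone, and that difference may be technical. The fit of the GC trend was a cubic on autosomal genes with 50 or more counts in both libraries. Alternatives were TMM factors (edgeR 4.0.16, R 4.3.3), DESeq2 (1.42.0) size factors, other count minimums and pseudocounts, other TPM thresholds, CPM, exonic length and each replicate alone.

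Named genes are the 8 regulators, their 18 relatives and partners, any antisense gene that overlaps a regulator and, of each other list, the 3 with the highest mean TPM and the called genes with the largest difference each way, of which a few are not reported here. No gene was named for likeness to the regulators, since 2 libraries give no pattern.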

Additional observations from a re-analysis of the deposited data

How the results depend on the processing

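No paired analysis was possible because both libraries belong to 1 group. Of 84 alternative values for 25 results, 56 were classed as the same as the main value. Numbers of genes and ranks were classed by a fixed fold limit, and mean levels by the SD. The number of regulators at 1 TPM or more, 2 on span length, was 4 with exonic length and 5 at 1 CPM. It was 8 at a threshold of 0.1 TPM and 0 at 5 TPM. It was 2 to 3 with 1 replicate left out. The number of fibroblast markers at 1 TPM or more, 1 on span length, was 3 with exonic length. Of the 8 ranks by span TPM, 2 were kept with exonic length and 3 with CPM. The number of regulators called between the libraries, 0, was 1 with the GC trend, and stayed 0 with TMM factors, DESeq2 size factors and the other count minimums. The log2 ratio of Gata6 turned to 0.35 and that of Hnf4a to 0.21 with the GC trend. The log2 ratio of Dab2 turned to 0.10 with TMM factors and to 0.16 with DESeq2 size factors, and TMM factors moved every ratio by 0.26. The causes were not tested beyond what each setting changes by construction.

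With 2 libraries of 1 group, no level was compared between conditions. Depth limits Sox7, Foxa2 and Sox17 most, with 24 or fewer counts each over both libraries. The levels of long genes rest on the length chosen, and fragments of exons and introns cannot be told apart in these counts.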
